A study of Mus musculus with 4 samples.

Results

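The transcripts of 8 genes were followed in single bone marrow cells: Gata1, Gata2, Klf1, Gfi1b, Tal1, Zfpm1, Nfe2 and Fli1. They encode transcription factors of the GATA family and of the erythroid and megakaryocyte lineages and were taken by symbol. All 8 were among the 32285 genes counted. The study title names MLL3 and MLL4, histone methyltransferases encoded by Kmt2c and Kmt2d, and asks how far blood stem cells and their myeloid and B-lineage output depend on their presence or on the enzymatic function of their complex. There were 3 Kit+ libraries from mouse bone marrow, 1 per group: control, Mll3/4 deleted and Mll3/4SI. Another library, control B220lo cells, was used only as a reference. In every group CD45.2+ cells were sorted 10 weeks after transplantation and processed with a 10x Genomics 5′ version 2 kit. Kit is the stem cell factor receptor of blood progenitors, CD45.2 is an allelic form of a leukocyte antigen that can mark donor cells, and B220 is a B-lineage antigen. SI is not spelled out in the labels, which also give neither the alleles, the means of deletion nor how many mice entered a library.

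GATA1 and GATA2 bind the same short DNA motif. GATA2 acts in stem and early progenitor cells and in mast cells, and GATA1 takes over many of its sites as erythroid cells and megakaryocytes mature. FOG1, the product of Zfpm1, binds GATA1 directly, and TAL1 joins GATA factors in a complex on erythroid enhancers. KLF1 activates globin and other erythroid genes, GFI1B is a repressor needed for red cells and platelets, NF-E2 (Nfe2) drives platelet formation, and FLI1 is an ETS factor of megakaryocytes and stem cells that opposes KLF1.

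GATA1 acts on the genes of several of these regulators, so the bases upstream of the annotated starts of 4 members are shown, with GATA motifs in capitals. The motif was GATA with A or T before it and A or G after it, on either strand. Sequences are from RefSeq on GRCm38.p6. Those of Gfi1b, Tal1 and Gata1 end at the base before the RefSeq start, and that of Klf1 ends earlier, at the base before the GENCODE gene start, which lies upstream of the RefSeq one. In the promoter table used here 6 of the 8 members were matched, all but Nfe2 and Fli1. A motif was present upstream of Klf1, Gfi1b and the first Tal1 start and in no window of Gata1, Gata2, Zfpm1 or the other Tal1 start. Among all 32851 promoters of this table, 26.5% held one. A match is a description of the letters and not evidence of binding.
Klf1, chr8:84901732-84901927, plus strand: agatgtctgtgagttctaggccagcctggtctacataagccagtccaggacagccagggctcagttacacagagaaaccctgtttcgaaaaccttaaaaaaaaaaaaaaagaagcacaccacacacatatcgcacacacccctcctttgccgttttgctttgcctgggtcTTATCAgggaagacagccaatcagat
Gfi1b, chr2:28621983-28622232, minus strand: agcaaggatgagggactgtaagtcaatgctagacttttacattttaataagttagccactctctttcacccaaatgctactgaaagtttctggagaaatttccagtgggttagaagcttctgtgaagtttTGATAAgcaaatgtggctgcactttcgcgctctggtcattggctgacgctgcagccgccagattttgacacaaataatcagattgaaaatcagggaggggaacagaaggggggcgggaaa
Tal1, chr4:115056176-115056425, plus strand: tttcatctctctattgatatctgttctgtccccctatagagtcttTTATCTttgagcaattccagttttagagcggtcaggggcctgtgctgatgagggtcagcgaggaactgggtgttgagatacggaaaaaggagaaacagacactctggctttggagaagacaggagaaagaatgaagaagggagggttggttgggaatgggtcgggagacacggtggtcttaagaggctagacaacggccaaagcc
Gata1, chrX:7967911-7968160, minus strand: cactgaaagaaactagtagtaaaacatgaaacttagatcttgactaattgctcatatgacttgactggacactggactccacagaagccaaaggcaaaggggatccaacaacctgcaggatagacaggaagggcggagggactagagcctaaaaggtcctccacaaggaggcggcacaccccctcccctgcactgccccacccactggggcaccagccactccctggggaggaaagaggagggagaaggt
Counted from the RefSeq starts, the motif began 80 bases before that of Klf1, 120 before that of Gfi1b and 205 before that of Tal1.

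On GRCm38 the genes lie at chrX:7959260-7978071 (Gata1), chr6:88193891-88207032 (Gata2), chr8:84901928-84905291 (Klf1), chr2:28609450-28621982 (Gfi1b), chr4:115056426-115071755 (Tal1), chr8:122282141-122337251 (Zfpm1), chr15:103248212-103258403 (Nfe2) and chr9:32422204-32542861 (Fli1). Zfpm1 overlaps the predicted gene Gm20388 on its own strand, and Fli1 overlaps 6 predicted genes, so counts of both are less certain than those of the other members. Gata1 is X-linked. Y-linked genes summed to 0.0244 CPM among control, 0.0301 among SI and 149 among deleted cells, so sex and genotype cannot be told apart in the deleted library.

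After filtering, 11051 control, 13747 deleted and 11501 SI cells were kept, from libraries of 163751605, 130424242 and 166327773 unique molecular identifiers (UMIs, the counted transcript molecules). In cells with a UMI of the stem cell gene Hlf, Kmt2c stood at 69.4, 51.8 (44.1 to 60.6) and 67.7 CPM and Kmt2d at 26.2 (24.4 to 28.2), 14.4 (10.5 to 19.4) and 20.9 (19.6 to 22.3). Counts from the 5′ end do not show whether a deletion lies further along the gene. Between 178 and 213 barcodes were shared by each pair of Kit+ libraries, at most 1.86% of the smaller one. The deleted library stood apart, since 91.6% of its cells had at least 3 UMIs of the B-cell receptor component Cd79a, against 0.425% of control and 0.243% of SI cells.

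Levels were read in 6 gates, each set by raw UMIs of 1 gene. The Hlf gate (1 or more UMIs of a stem cell transcription factor) held 2493 control, 186 deleted and 3238 SI cells. The Pf4 gate (3 or more UMIs of a megakaryocyte chemokine) held 590, 13 and 472. Carbonic anhydrase 1, Car1, marks early erythroid cells: its low gate (1 to 9 UMIs) held 2125, 245 and 1138 and its high gate (10 or more) 2288, 62 and 869. The Fcer1a gate (3 or more UMIs of the IgE receptor of mast cells and basophils) held 127, 4 and 2341, and the Elane gate (10 or more UMIs of neutrophil elastase) 4223, 554 and 3345. As shares of their libraries, the Fcer1a gate took 1.15% of control and 20.4% of SI cells, and the high Car1 gate 20.7% and 7.56%. In the deleted library the high Car1 gate took 0.451%, the Pf4 gate 0.0946% and the Fcer1a gate 0.0291%. Deleted gates of 13 and 4 cells are given as values only.

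Gates overlap, and their markers were read before the members. Markers summed over a list gave 1915, 1825 and 1713 CPM of erythroid genes in the high Car1 gate of the control, deleted and SI libraries, with all 7 markers above 0 in each. Megakaryocyte markers in the Pf4 gate summed to 958 CPM in the control and 507 in the SI library. Mast or basophil markers in the Fcer1a gate summed to 2466 and 2192 CPM in these libraries, although single markers differed far more, and granulocyte markers in the Elane gate to 29519, 34514 and 35751. The low Car1 gate was mixed, with 17061 CPM of granulocyte markers and 37.8% of its control cells also in the Elane gate. So was the Hlf gate, with 12248, 17028 and 10276 CPM of granulocyte markers in the control, deleted and SI libraries. Its stem and progenitor markers summed to 530.5, 504 and 585 CPM. Of Hlf gate cells, 28.4%, 36.6% and 17.3% were also in the Elane gate. The labelled Kit+ sort cannot be checked against a protein here.

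The makeup of the gates differed between libraries. In the SI library 53.0% of Pf4 gate cells and 21.6% of Hlf gate cells were also in the Fcer1a gate, against 0.508% and 0.682% in the control. Of Hlf gate cells, the share also in the low Car1 gate was 19.5% (control), 1.08% (deleted) and 8.74% (SI), and that in the high one 6.10%, 0 and 1.64%. Cells with 3 or more Cd79a UMIs made up 84.1% of the deleted low Car1 gate, 16.6% of its Elane gate, 12.9% of its Hlf gate and 11.3% of its high Car1 gate.

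Levels are in CPM, the UMIs of a gene per 1000000 UMIs of all cells in the gate, a value that joins the share of cells with the transcript and the amount per cell. Intervals in parentheses are exact 95% intervals that cover counting error only. With 1 library per group there is no replicate and no test, and differences compare libraries, not conditions.

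Gata1 and Klf1, the factors of the erythroid program, were highest in the high Car1 gate. In control cells Gata1 stood at 7.71 CPM in the Elane gate, 40.8 in the Hlf gate, 54.7 in the low Car1 gate, 108 in the Pf4 gate, 131 in the Fcer1a gate and 208 (203 to 212) in the high Car1 gate. Only the Pf4 and Fcer1a levels had overlapping intervals. Klf1 stood at 5.20 CPM in the Elane gate, 29.7 in the Hlf gate, 32.2 in the Pf4 gate, 37.5 in the low Car1 gate, 52.0 in the Fcer1a gate and 259.5 (255 to 264) in the high Car1 gate. Its Pf4 level was not separable from the Hlf or the low Car1 level. The same 2 genes were again highest in the high Car1 gate of the SI library, at 228 and 272 CPM.

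Gfi1b, the repressor, was also highest in the high Car1 gate of the control, at 177 CPM (173 to 181), followed by the Pf4 gate at 124 (116 to 132). It stood at 40.0 in the Hlf gate, 43.1 in the low Car1 gate and 44.9 in the Fcer1a gate, where neighbours overlapped, and at 5.52 in the Elane gate. Gata2 had another order. Its control level was 23.5 CPM in the Elane gate, 78.1 in the high Car1 gate, 92.7 in the Hlf gate, 109.6 in the low Car1 gate, 198 in the Pf4 gate and 362 (331 to 394) in the Fcer1a gate. No neighbouring intervals overlapped, so Gata2 was highest where mast and basophil transcripts were, and low where Car1 was high.

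Zfpm1, Fli1 and Tal1 were highest in the Pf4 gate. Zfpm1 stood at 177 CPM there (168 to 188), 96.4 in the high Car1 gate and between 45.6 and 51.2 in the Hlf, low Car1 and Fcer1a gates, and at 9.94 in the Elane gate. Fli1 stood at 428 CPM (413 to 443) in the Pf4 gate, 209.9 in the Fcer1a gate, 177 in the Hlf gate, 164 in the low Car1 gate and 144 in the Elane gate. It was lowest in the high Car1 gate, at 37.2 (35.4 to 39.1), and was the only member whose lowest control level was not in the Elane gate. Tal1 spanned 4.95-fold, from 23.3 CPM in the Elane gate to 115 in the Pf4 gate, with 57.4 to 94.5 in the other gates. Nfe2 was the flattest, from 117 CPM in the Elane gate to 233 in the Fcer1a gate, with 131 in the high Car1 gate, 172 in the low Car1 gate, 184 in the Hlf gate and 220.2 in the Pf4 gate.

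**Figure D1:**
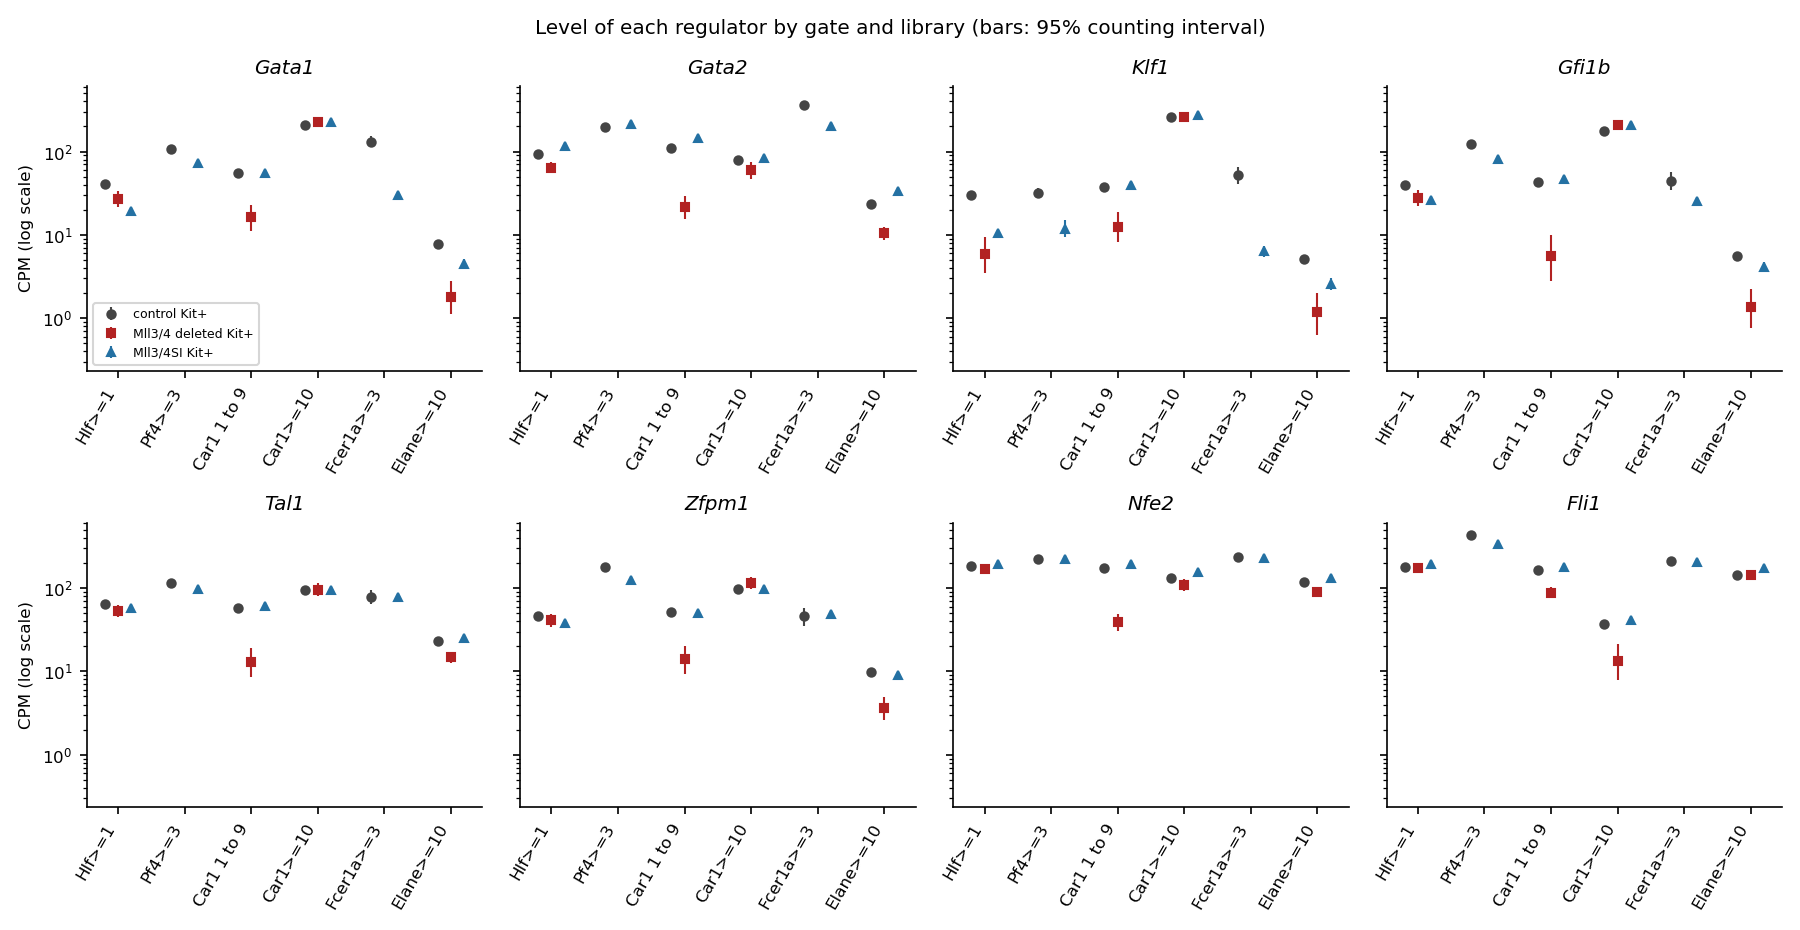
Level of each of the 8 genes (CPM, log scale) in 6 gates of the control (circles), Mll3/4 deleted (squares) and Mll3/4SI (triangles) Kit+ libraries; bars are 95% counting intervals, and the deleted Pf4 and Fcer1a gates, with 13 and 4 cells, are not drawn. In the high Car1 gate the 3 libraries lie close together for every gene but Fli1, at 37.2, 13.4 and 41.5 CPM, while in the Fcer1a gate Gata1 and Klf1 lie far lower in the SI library.

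Shares of cells with a UMI were read after thinning each cell to 3000 UMIs, leaving out shallower cells. Gata1 was found in 46.4% of 2271 control cells of the high Car1 gate, 30.7% of 127 of the Fcer1a gate, 27.0% of 582 of the Pf4 gate and 8.42% of 2446 of the Hlf gate, against 89.6%, 69.3%, 61.5% and 19.7% without thinning. For reference in cells of other lineages, Gata1 was found in 1.58% of 4170 control cells of the Elane gate (median depth 14418 UMIs) and in 1 of 26 cells with 3 or more Cd79a UMIs (3.85%, 0.0973 to 19.6; median depth 4231 UMIs). Klf1 and Gfi1b were likewise at 1.06% and 1.13% in the Elane gate. Shares of these 3 genes at or below those values are not read as expression. The Elane level was not the same under all settings: control Gata1 was 7.71 CPM there and Klf1 5.20, against 2.46 and 1.41 in Elane cells positive for no other gate gene and 24.8 and 24.0 with doublets kept, and where these UMIs came from was not tested. In the deleted library Gata1 was found in 6 of 11260 thinned cells with 3 or more Cd79a UMIs, or 0.0533%.

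Levels of the regulators were also read along Car1 itself, in cells outside the Pf4, Fcer1a and Elane gates. This is a scale of raw UMIs, and no order of maturation was measured. From the first bin below to the last, the median depth of control cells was 6872, 6677, 5416, 8088, 16457 and 25956 UMIs. That of SI cells was 9214, 8214, 6840.5, 8424, 16028 and 26958. Bins of raw UMIs depend on depth, and the part of depth in differences between the libraries was not tested. The share of erythroid cells in each bin was not tested. With Car1 at 0, 1 to 3, 4 to 9, 10 to 29, 30 to 99 and 100 or more UMIs, control Gata1 stood at 43.3, 79.4, 189.7, 189.8, 209.9 and 222 CPM. Most of the difference lay below 10 Car1 UMIs. Klf1 stood at 16.5, 51.8, 174, 198, 257 and 299.6 CPM and was higher still in the last bin, where its interval (292 to 308) lay above that of the bin before (249.6 to 265). Gfi1b followed with 38.5, 56.4, 145, 147, 173 and 201 CPM.

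Gata2 had a peak in the middle of the same scale. Its control level was 135, 181, 253, 181, 83.9 and 39.4 CPM over the 6 bins, so it was far lower in the last bin than in that of 4 to 9 UMIs. Zfpm1 also peaked in the bin of 4 to 9 UMIs, at 125 CPM between 70.4 and 103 in its neighbours. Fli1 held at 176 and 172 CPM in the first 2 bins and then stood at 80.2, 72.9, 34.8 and 14.7. Nfe2 stood between 224 and 241 CPM up to 29 Car1 UMIs and then at 140.2 and 94.4, whereas Tal1 stayed between 75.2 and 103 CPM throughout.

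The SI course was close to that of the control for some members and not for others. From 4 to 9 UMIs upward, SI Gata1 stood at 190.4, 214, 229.8 and 240.1 CPM, Klf1 at 180.2, 210.2, 262 and 312, and Gata2 at 232, 187, 96.2 and 39.7. Gfi1b and Nfe2 were higher than in the control in the upper bins: 208 against 173 and 226 against 201 CPM for Gfi1b, and 167 against 140.2 and 118 against 94.4 for Nfe2, with separate intervals. With Car1 at 0, Gata1 was 21.6 CPM in 4218 SI cells against 43.3 in 2806 control cells, and Klf1 8.98 against 16.5. The lower SI level in this bin was not particular to them. Gata2 was 110.5 against 135, Gfi1b 27.4 against 38.5 and Tal1 57.1 against 75.2. Zfpm1 was 35.9 against 52.4 and Nfe2 197 against 224, all with separate intervals. Only Fli1 was higher there, at 189.9 against 176. In the bin of 1 to 3 UMIs, SI Gata1 was 63.3 (56.2 to 71.0) against 79.4 (72.7 to 86.6), and Klf1 44.1 (38.2 to 50.6) against 51.8 (46.4 to 57.6), which overlap. Tal1 was 64.6 (57.4 to 72.4) against 90.0 (82.8 to 97.7) in that bin. Fli1 was the other way, with 115 CPM against 80.2 in the bin of 4 to 9 and 21.8 against 14.7 in the last.

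**Figure D2:**
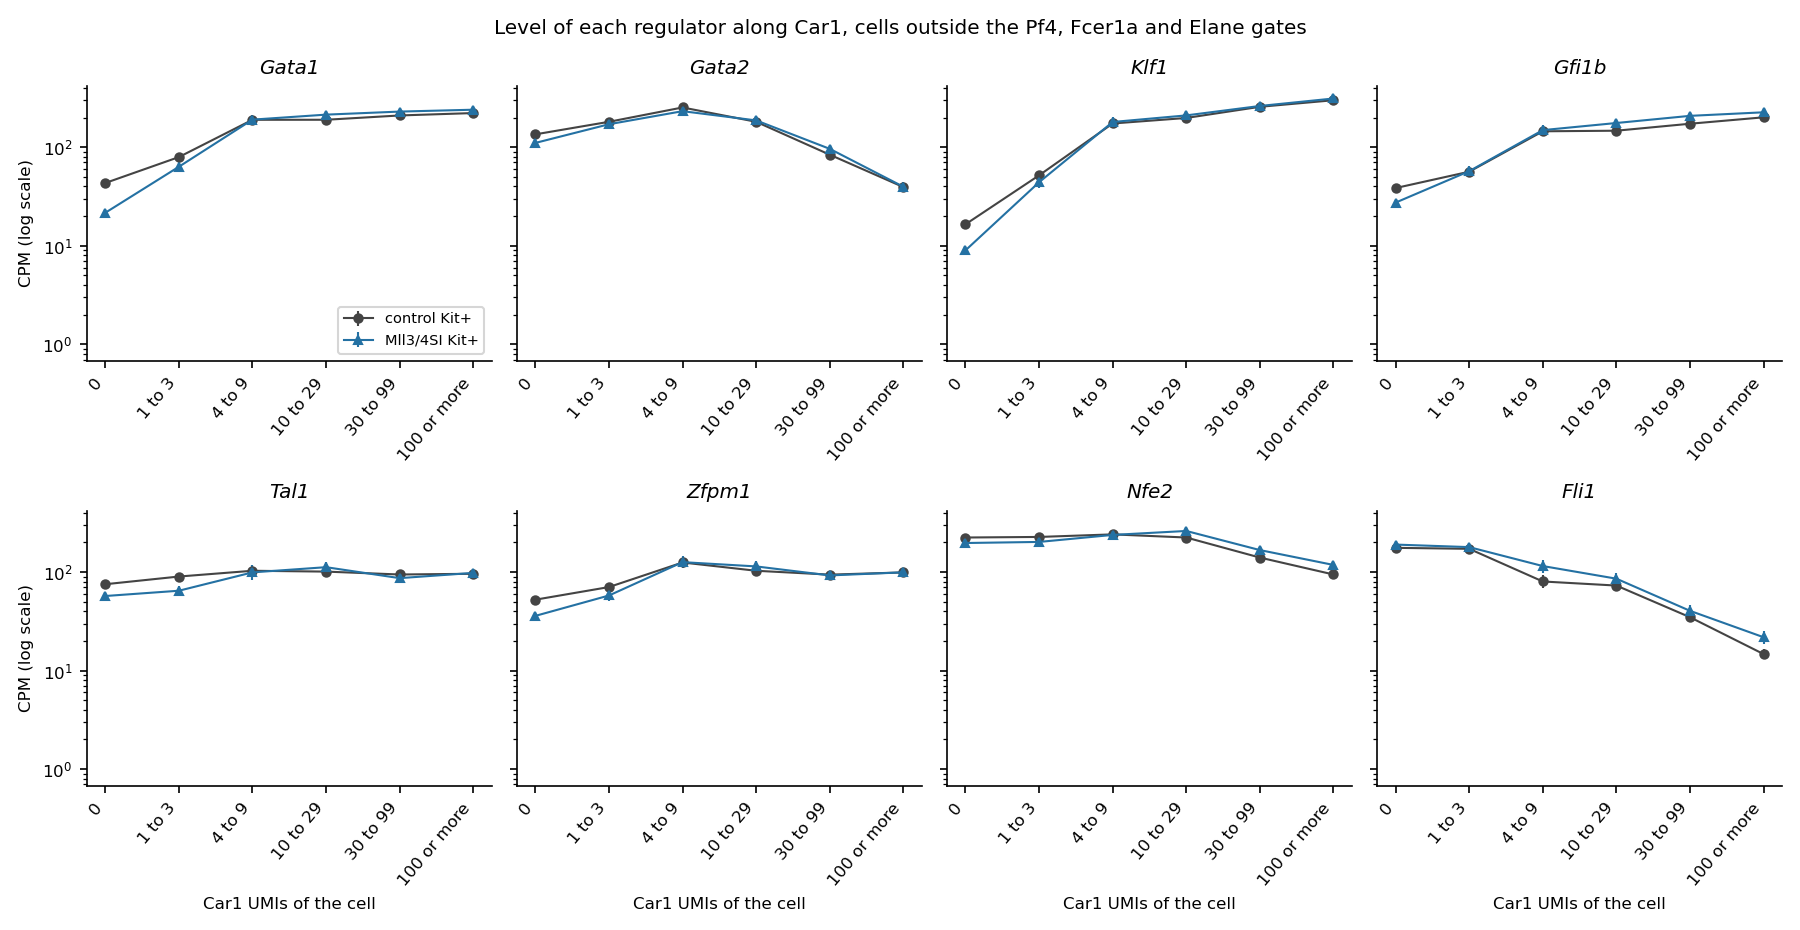
Level of each gene (CPM) against the Car1 UMIs of a cell, in 6 bins, for control and SI cells outside the Pf4, Fcer1a and Elane gates; bars are 95% counting intervals. Control Gata2 peaks at 253 CPM in the bin of 4 to 9 UMIs and drops to 39.4 in the last, while Klf1 climbs from 16.5 to 299.6.

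The deleted library had only 11, 19, 22 and 20 such cells from 4 to 9 Car1 UMIs upward, and 205 of its 222 cells with 1 to 3 UMIs were also Cd79a cells. In the last bin its levels were 264 CPM for Gata1 (227 to 305), 293 for Klf1 (254 to 337), 245 for Gfi1b and 20.5 for Gata2 (11.2 to 34.4). The intervals of Gata1 and Klf1 overlapped those of the control, Gfi1b lay above its control interval (194 to 208), and Gata2 below (36.5 to 42.5). In the bin of 10 to 29 UMIs, Klf1 was 122 CPM (75.3 to 186), below the control interval (187 to 210.3) by a narrow gap, and Gata1 127 (79.9 to 193), which overlaps it. In the 11 cells of the bin of 4 to 9 UMIs, Gfi1b was lower than in the control, at 48.9 CPM (13.3 to 125, on 4 UMIs) against 145 (129.7 to 162), and Nfe2 higher, at 428 (298 to 595) against 241 (221 to 262).

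The Mll3/4SI library was next set against the control. A difference was called at 1.5-fold or more on the scale of log2(CPM + 1), and its ratio is given without the added 1. Of the 48 pairs of a gene and a gate, 11 were called lower, 0 higher and 37 neither: 4 in the Fcer1a gate, 3 in the Hlf gate, 2 each in the Pf4 and Elane gates and 0 in both Car1 gates. For background, the shares of all tested genes (mean of at least 10 CPM) called lower and higher were 7.93% and 6.36% in the Fcer1a gate, 1.82% and 1.98% in the Hlf gate, 4.06% and 3.54% in the Pf4 gate, 1.05% and 1.83% in the Elane gate, 1.51% and 2.66% in the low Car1 gate and 0.747% and 1.21% in the high Car1 gate. In 5 gates all 8 members passed the 10 CPM minimum. In the Elane gate 4 did, and neither of its 2 called members was among them.

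The Fcer1a gate had the largest differences. Gata1 was 131 CPM in 127 control cells (187 UMIs) and 30.5 in 2341 SI cells, a ratio of 0.232 (0.198 to 0.273). Klf1 was 52.0 and 6.34 CPM, a ratio of 0.122 (0.0929 to 0.162), on 74 control UMIs. Gata2, at 362 and 204 CPM, had a ratio of 0.565 (0.517 to 0.620), and Gfi1b, at 44.9 and 25.6 CPM, one of 0.569 (0.441 to 0.746). All 4 intervals lay below 1. The other 4 members, Tal1, Zfpm1, Nfe2 and Fli1, had ratios between 0.985 and 1.07. After thinning, Gata1 was found in 30.7% of control and 7.98% of SI cells, and Klf1 in 13.4% and 1.16%. In Elane gate cells the Klf1 share was 1.06% in the control (0.768 to 1.41) and 0.632% in the SI library (0.392 to 0.964).

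These cells were also split by transcripts the gate did not use. Mcpt8 and Prss34, proteases of basophils, were both at 0 in 86 control cells (67.7% of the gate) and 2217 SI cells (94.7%). Within them Gata1 was 148 and 30.8 CPM, a ratio of 0.207 (0.172 to 0.251), Klf1 61.1 and 6.26, a ratio of 0.102, and Gata2 359 and 202, a ratio of 0.563. In cells with 1 or 2 such UMIs (24 and 93) the Gata1 ratio was 0.173 and the Gata2 ratio 0.554, so the differences were there within both of these classes. No ratio is given for the remaining cells, with more than 2 such UMIs, and nothing is read for them. Split by Car1, Klf1 was 45.3 CPM in control and 2.91 in SI cells with Car1 at 0, where the SI value is about that of the SI Elane gate (2.57) and no exact ratio is read. With Car1 at 1 or more the Klf1 ratio was 0.491 (0.318 to 0.783). The Gata1 ratios were 0.219 with Car1 at 0 and 0.370 with Car1. Marker sums in the gate were 243 CPM of erythroid and 255 of megakaryocyte genes in the control, and 85.5 and 168 in the SI library. Their part in the difference was not tested.

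In the Hlf gate, Gata1 was 40.8 CPM in control and 19.1 in SI cells, a ratio of 0.468 (0.427 to 0.512). Klf1 was 29.7 and 10.5 CPM (0.354, 0.315 to 0.397) and Gfi1b 40.0 and 26.2 (0.654, 0.602 to 0.711). Gata2 went the other way without reaching the fold, at 92.7 and 115 CPM (1.24, 1.18 to 1.30), and in cells positive for no other gate gene its log2 ratio was -0.06, so this direction did not hold there. Tal1, Nfe2 and Fli1 had ratios of 0.898, 1.04 and 1.09, and Zfpm1 0.818. Among Hlf cells with Car1 at 0 (1855 control and 2902 SI cells) the ratios were 0.582 (0.510 to 0.664) for Gata1, from 21.6 to 12.6 CPM, 0.752 (0.672 to 0.840) for Gfi1b and 0.893 (0.818 to 0.976) for Zfpm1. Klf1 was 5.21 CPM in the control and 2.69 in the SI cells (0.516, 0.389 to 0.684), about the levels of their Elane gates (5.20 and 2.57 CPM). Of control Elane gate cells 16.7% were also in the Hlf gate, and Klf1 was lower in those positive for no other gate gene. The Elane level is thus not a separate floor, and whether Klf1 expression differs in Hlf cells with Car1 at 0 was not tested. In Hlf cells with Car1 the ratios were 0.804 for Gata1, 0.811 for Klf1 and 1.02 for Gfi1b. Erythroid markers in this gate summed to 392 CPM in control and 155 in SI cells, and mast or basophil markers to 260.3 and 804.

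In the Pf4 gate, Klf1 was 32.2 CPM in control and 11.9 in SI cells (0.369, 0.280 to 0.483) and Gfi1b 124 and 81.6 (0.659, 0.589 to 0.736). Gata1, at 108 and 73.1 CPM (0.677, 0.601 to 0.762), Zfpm1, at 177 and 124 (interval of the ratio 0.639 to 0.767), and Fli1, at 428 and 336 (0.784, 0.741 to 0.830), were lower by less than the fold, and Gata2 was 198 and 215. Among cells positive for no other gate gene (289 control and 133 SI cells) the log2 ratios were 0.07 for Gata1, -0.01 for Gfi1b, -0.55 for Klf1, -0.30 for Zfpm1 and -0.20 for Fli1, so neither call stood. In Pf4 cells with Car1 at 0 (425 in each library) the ratios were 0.412 (0.269 to 0.621) for Klf1, 0.662 (0.582 to 0.752) for Gfi1b and 0.674 (0.586 to 0.774) for Gata1. In the SI gate as a whole, mast or basophil markers summed to 638 CPM against 71.6 in the control.

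The same restriction left the Fcer1a calls of Gata1, Gata2 and Klf1 in place, with log2 ratios of -2.25, -1.04 and -3.88 in 61 control and 1242 SI cells, and took Gfi1b to -0.53, under the fold. With doublets kept, Gata2 was -0.58, just short of it, and with cells thinned before gating, which left 28 control cells, Gfi1b was -0.02. In the Hlf gate, cells positive for no other gate gene gave -0.81 for Gata1, -0.80 for Klf1 and -0.30 for Gfi1b, so that the Gfi1b call ended. In the Elane gate Gata1 was 7.71 and 4.53 CPM and Klf1 5.20 and 2.57, and with that restriction they were not called (-0.40 and -0.44). With doublets kept, their log2 ratios in the Elane gate were -1.17 and -1.43, and Gfi1b (-0.91) and Zfpm1 (-0.65) were also past the fold. Gata2 was 23.5 and 33.2 CPM there (1.41, 1.32 to 1.52) and Fli1 144 and 172 (1.19, 1.16 to 1.23).

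Both Car1 gates held no call. In the high Car1 gate the 8 ratios of SI to control lay between 0.997 and 1.18. Gata1 was 208 and 228 CPM (1.10, 1.06 to 1.14), Klf1 259.5 and 272 (1.05, 1.01 to 1.08), and Gfi1b 177 and 206 (1.16, 1.12 to 1.21), so these erythroid factors were as high or slightly higher per UMI in the SI cells, of which there were fewer. In the low Car1 gate Gata1 was 54.7 CPM in both libraries and Gata2 109.6 and 146 (1.33, 1.25 to 1.41). In cells positive for no other gate gene the Gata2 log2 ratio was -0.09, so its direction turned. Over the 8 members the median log2 ratio was 0.11 in the high and 0.10 in the low Car1 gate, -0.22 in the Hlf, -0.43 in the Pf4 and -0.41 in the Fcer1a gate. The medians of all tested genes lay between 0.01 and 0.06 in these 5 gates.

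**Figure D3:**
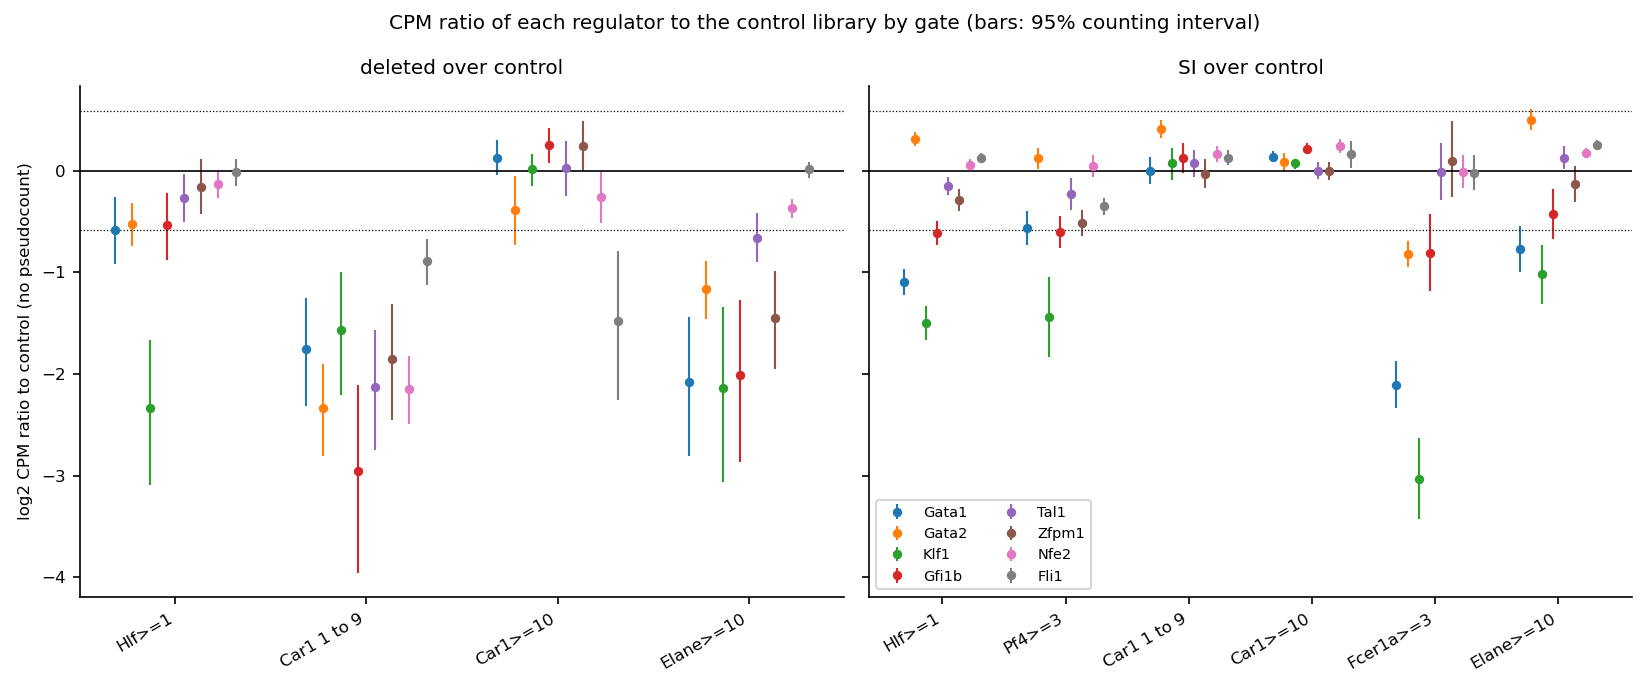
Log2 CPM ratio of each gene to the control library by gate, for the deleted (left) and the SI library (right), with no pseudocount; bars are 95% counting intervals and dotted lines mark 1.5-fold. SI ratios lie near 0 in the high Car1 gate and spread downward for Gata1 and Klf1 in the Fcer1a gate (ratios 0.232 and 0.122); deleted ratios lie low in the low Car1 gate, of which 84.1% are Cd79a cells.

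The deleted library was set against the same control library, so the comparisons share their control. Of 32 pairs in the 4 gates with enough cells, 16 were called lower, 0 higher and 16 neither: 8 in the low Car1 gate, 6 in the Elane gate and 1 each in the Hlf and high Car1 gates. The shares of all tested genes called lower and higher were 16.7% and 14.1% in the low Car1 gate, 2.62% and 1.71% in the Elane gate, 4.44% and 2.42% in the Hlf gate and 4.32% and 2.55% in the high Car1 gate. In the Elane gate the called Gata2 and Tal1 are among the tested genes, and the called Gata1, Klf1, Gfi1b and Zfpm1 are under the 10 CPM minimum. Of the 16 calls, 8 came from a gate that was largely Cd79a cells in this library.

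Hlf cells of the deleted library were within the fold for 7 of the 8 members. Gata2 was 92.7 CPM in control and 64.3 in deleted cells (0.694, 0.597 to 0.802), Gata1 40.8 and 27.2 (0.668, 0.528 to 0.835) and Gfi1b 40.0 and 27.6 (0.689, 0.545 to 0.860), all short of the fold. With doublets kept, all 3 were past the fold, with log2 ratios of -0.63 for Gata2 and -1.06 for Gata1, so that 4 of the 8 members were called. The direction of Gata1 and Gfi1b turned in cells positive for no other gate gene, to 0.99 and 0.45, and that of Gfi1b with gate thresholds doubled (0.33). Tal1, Zfpm1, Nfe2 and Fli1 had ratios of 0.832, 0.897, 0.910 and 0.988. Klf1 was the called member, at 29.7 and 5.91 CPM (0.199, 0.117 to 0.316), on 18 UMIs in 186 deleted cells. Among Hlf cells with Car1 at 0 (1855 and 184) it was 5.21 and 5.62 CPM, a ratio of 1.08 (0.606 to 1.81), and Gata1 was 21.6 and 27.1, a ratio of 1.25 (0.979 to 1.59). The Klf1 call thus ended once Car1 cells were left out, of which the deleted gate held 2. The control level with Car1 at 0 was that of the control Elane gate (5.20 CPM), while the deleted one, on 17 UMIs, was above the 1.18 CPM (0.631 to 2.03) of the deleted Elane gate. With cells positive for no other gate gene the log2 ratio of Klf1 was 0.52. In Hlf cells with Car1 at 0, Gata2 was lower, at 90.9 and 64.1 CPM (0.705, 0.605 to 0.818). Without the Car1 split, its log2 ratio was -0.04 with cells thinned before gating. It was -0.24 with gate thresholds doubled and also in cells positive for no other gate gene. Erythroid markers summed to 392 CPM in the control and 182 in the deleted Hlf gate, where 5 of the 7 were above 0, and B-lineage markers to 43.1 and 892. Their part in these differences was not tested.

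The 62 cells of the high Car1 gate were close to the control in 7 members. Klf1 was 259.5 CPM in control and 261 in deleted cells (1.01, 0.900 to 1.12), Gata1 208 and 227 (1.09, 0.970 to 1.23), Gfi1b 177 and 210.1 (1.19, 1.05 to 1.34), Tal1 94.5 and 96.0 (1.02, 0.841 to 1.22) and Zfpm1 96.4 and 114 (1.18, 0.996 to 1.40). Gata2 was 78.1 and 59.8 (0.766, 0.602 to 0.961) and Nfe2 131 and 109 (0.835, 0.701 to 0.989). The log2 ratio of Gata2 was past the fold with gate thresholds doubled (-0.59) and with cells thinned before gating (-1.51). That of Nfe2 turned to 0.31 when thinned. Fli1, the megakaryocyte and stem cell factor, was the exception at 37.2 and 13.4 CPM (0.359, 0.209 to 0.577), on 17 UMIs. By Car1 bin it was 72.9 and 40.6 CPM at 10 to 29 UMIs, 34.8 and 15.5 at 30 to 99, and 14.7 and 4.40 at 100 or more. The deleted value was the lower in each, on 7, 6 and 3 UMIs, with overlapping intervals in the first 2 bins. B-lineage markers summed to 458 CPM in this deleted gate against 8.43 in the control, and Cd79a cells of the deleted library themselves had Fli1 at 85.9 CPM.

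In the low Car1 gate the 8 ratios of deleted to control ran from 0.129 (Gfi1b, 43.1 and 5.56 CPM) to 0.539 (Fli1, 164 and 88.4 CPM). Gata1 was 54.7 and 16.2 CPM and Gata2 109.6 and 21.7. B-lineage markers summed to 11410.3 CPM there in the deleted and 49.7 in the control library. Without cells of 3 or more Cd79a UMIs, 39 deleted cells were left, with Gata1 at 80.1 CPM, Gata2 at 111, Klf1 at 54.2, Tal1 at 67.2, Zfpm1 at 54.2, Nfe2 at 189, Fli1 at 116 and Gfi1b at 28.4. Of the 8 signs, 6 then turned: the log2 ratios were 0.54 for Gata1, 0.02 for Gata2, 0.52 for Klf1, 0.22 for Tal1, 0.08 for Zfpm1 and 0.13 for Nfe2. Gfi1b, at -0.59, was just past the fold, and was short of it (-0.55) without cells of 10 or more B-lineage UMIs, and Fli1 was -0.49.

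In the Elane gate, Gata1, Klf1 and Gfi1b were 7.71, 5.20 and 5.52 CPM in control and 1.82, 1.18 and 1.37 in deleted cells. Gata2 was 23.5 and 10.5 CPM (0.446, 0.365 to 0.539), Tal1 23.3 and 14.8 (0.634, 0.536 to 0.747) and Zfpm1 9.94 and 3.64 (0.367, 0.259 to 0.505), while Nfe2 was 117 and 90.2 (0.773) and Fli1 144 and 145 (1.01). With cells positive for no other gate gene, the log2 ratios of Gata1, Klf1 and Gfi1b were -0.34, -0.14 and -0.17, and that of Tal1 -0.57, so these 4 calls ended, while Gata2 (-0.84) and Zfpm1 (-0.68) stayed past the fold. With doublets kept, the log2 ratios of Gata1, Klf1 and Gfi1b were -3.16, -3.61 and -3.12, against -1.63, -1.51 and -1.46. The summed erythroid markers were 92.7 and 77.9 CPM, and megakaryocyte markers 30.2 and 4.10. The erythroid sums hide opposite differences: Car2 was 47.5 CPM in control and 13.2 in deleted cells, and Tfrc 32.4 and 63.9. The part of erythroid transcripts in the lower regulators was not tested. In the 13 deleted cells of the Pf4 gate, Gata1 was 91.0, Gata2 67.3, Gfi1b 209.8, Zfpm1 234 and Fli1 491 CPM, against 108, 198, 124, 177 and 428 in the control. Gata2 rested on 17 UMIs there. The 4 deleted cells of the Fcer1a gate held 7 Gata1 and 18 Gata2 UMIs, or 165 and 424 CPM.

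**Figure D4:**
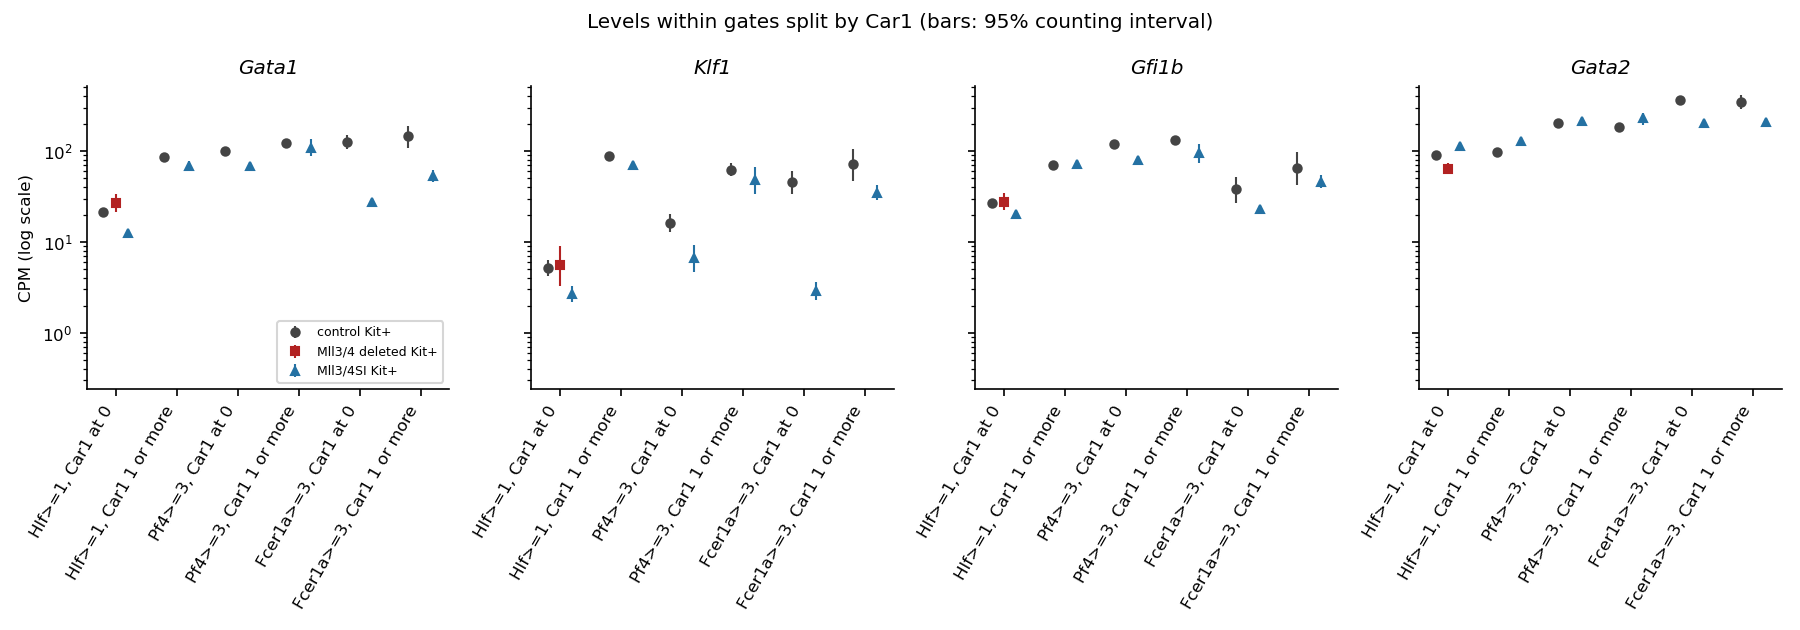
Levels (CPM, log scale) of Gata1, Klf1, Gfi1b and Gata2 in the Hlf, Pf4 and Fcer1a gates, each split into cells with Car1 at 0 and at 1 or more UMIs, by library; bars are 95% counting intervals, and parts of fewer than 20 cells are not drawn. Among Hlf cells with Car1 at 0, Gata1 is at 21.6 CPM in control, 27.1 in deleted and 12.6 in SI cells, while Klf1 is at 5.21, 5.62 and 2.69 CPM, against 5.20, 1.18 and 2.57 in their Elane gates.

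The balance of the 2 GATA factors was read as Gata1 UMIs per Gata2 UMI. Capture may differ between the genes, so it is compared only between gates and libraries. In control cells it was 0.328 in the Elane gate, 0.363 in the Fcer1a gate, 0.440 in the Hlf gate, 0.499 in the low Car1 gate, 0.546 in the Pf4 gate and 2.66 (2.55 to 2.77) in the high Car1 gate. SI cells had 0.136, 0.149, 0.166, 0.375, 0.340 and 2.76 (2.59 to 2.94), in the same order of gates. The SI ratio was lower than the control in the Hlf, Fcer1a, Pf4 and low Car1 gates, and the intervals overlap in the high Car1 gate. In cells positive for no other gate gene the libraries were close in the low Car1 gate, with Gata1 and Gata2 at 133 and 222 CPM in control and 120.2 and 209 in SI cells, and in the Pf4 gate, at 109.7 and 219.7 against 115 and 252. The Elane ratios rest on the low Gata1 levels described above. In the Hlf gate the deleted library stood at 0.423 (0.324 to 0.550), overlapping the control (0.410 to 0.471) and above the SI value (0.154 to 0.179). Among Hlf cells with Car1 at 0, Gata1 and Gata2 were at 21.6 and 90.9 CPM in control and 27.1 and 64.1 in deleted cells. The deleted balance was thus the higher one there. The deleted high Car1 gate had 3.80 (2.94 to 4.96), above the control interval. With equal weight per cell, the log2 ratios to control were -0.01 for Gata1 and -0.07 for Gata2, so little of this was left. At 10 to 29 Car1 UMIs the deleted balance was the lower one. Gata1 and Gata2 were at 127 and 209 CPM in 19 deleted cells and 189.8 and 181 in control cells. At 100 or more it was the higher one, with 264 and 20.5 against 222 and 39.4.

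Single cells held both factors in part. After thinning, both were found in 18.1% of control and 4.05% of SI cells of the Fcer1a gate, Gata1 alone in 12.6% and 3.92%, and Gata2 alone in 45.7% and 39.5%. With or without Gata1, the Gata2 share was 63.8% in the control (54.8 to 72.1) and 43.6% in the SI library (41.5 to 45.6). In the high Car1 gate both were found in 10.1%, 8.20% and 10.4% of cells (control, deleted, SI), Gata1 alone in 36.3%, 37.7% and 34.5%, and Gata2 alone in 12.6%, 11.5% and 13.0%. For Klf1 and Fli1, in control cells of the high Car1 gate 43.4% held Klf1 alone, 6.47% Fli1 alone and 5.28% both, and in those of the Pf4 gate the shares were 2.41%, 67.9% and 3.61%. Shares after thinning count only cells in which a UMI was found. The share with both genes of a pair depends on the share with each. Whether 2 genes were found together more or less often than those shares give was not tested.

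**Figure D5:**
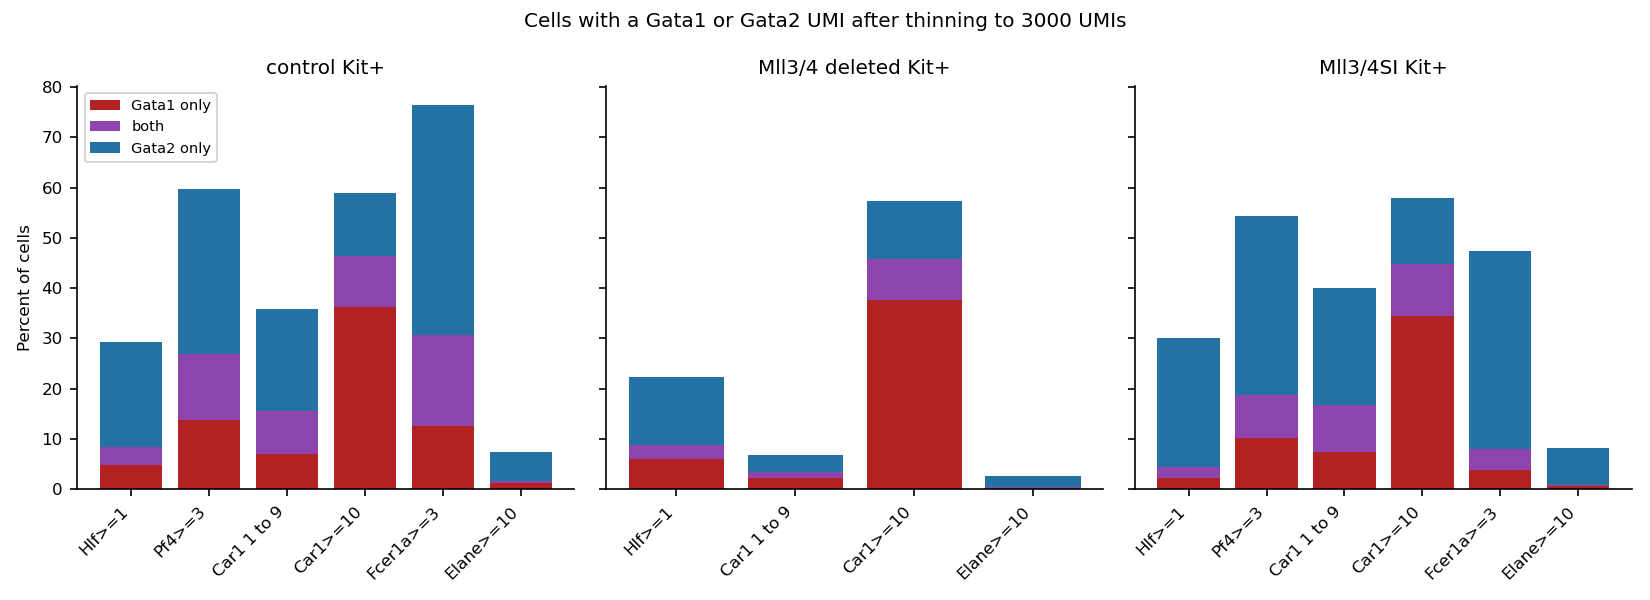
Percent of cells, thinned to 3000 UMIs, with Gata1 only, both Gata1 and Gata2, or Gata2 only, by gate and library; gates with fewer than 20 cells are left out. In the Fcer1a gate, cells with both make up 18.1% of control and 4.05% of SI cells.

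Cells in none of the 6 gates and with fewer than 3 Cd79a UMIs (1571 control, 501 deleted and 2473 SI cells) were read the same way. Lineage markers were not summed for these cells, which can differ in kind between the libraries. The part of their makeup in the levels was not tested. Gata1 was 62.4 CPM in control, 27.7 in deleted and 29.3 in SI cells, and Klf1 25.8, 14.1 and 13.7. Gata2 was 151, 95.6 and 109 CPM. The deleted and SI ratios to control were 0.366 and 0.651 for Gfi1b, 0.412 and 0.730 for Tal1, 0.514 and 0.890 for Nfe2, and 0.874 (0.702 to 1.08) and 0.604 for Zfpm1. Fli1 was the reverse, at 173, 233 and 193 CPM, with ratios to control of 1.35 (1.21 to 1.49) and 1.11 (1.06 to 1.18).

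Other genes of the same network were read from 5 lists: 24 partner factors, 10 receptors and their kinase, 24 erythroid, 16 megakaryocyte and 15 mast or basophil targets, some of them in more than 1 list. Counts are of members with a mean of at least 10 CPM. Partners were mostly within the fold outside the deleted low Car1 gate, where 4 of 21 were higher and 12 lower. In the high Car1 gate of the SI library 0 of 20 were called, and in its Hlf gate 1 of 22, the repressor Klf3, at 29.8 CPM in control and 14.1 in SI cells (0.473). In the Fcer1a gate 2 were higher and 5 lower of 21, with the stem cell factor Mecom at 47.0 and 9.13 CPM (0.194), Lmo4 at 426 and 132 (0.309) and the repressor Gfi1 at 11.9 and 28.5 (2.39). In the deleted Hlf gate 1 of 22 was lower, again Klf3 (29.8 and 13.1 CPM). Among receptors, in the SI Pf4 gate 2 of 10 were higher, among them the shared beta chain Csf2rb of the IL-3 family receptors (9.94 and 36.4 CPM), and 3 lower, among them the erythropoietin receptor Epor (24.1 and 13.9), and in the high Car1 gate of either library 0 of 7.

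Erythroid targets differed by gate. In the SI Hlf gate 5 of 11 were lower and 0 higher, with the beta-globin gene Hbb-bs at 102 and 4.31 CPM (0.0423). Elane gate cells differed likewise in this transcript, which stood at 47.9 CPM in control, 5.02 in SI and 1.09 in deleted cells, so its differences were not particular to one gate, and their source was not tested. In the SI high Car1 gate 2 of 16 were higher and 0 lower, with Hbb-bs at 81.9 and 348 CPM (4.25). The deleted high Car1 gate had 4 of 16 lower, with Hbb-bs at 81.9 and 1.57 CPM (0.0192), a ratio near that of the Elane gate (0.0228). In its Hlf gate 6 of 11 were lower and 1 higher, the transferrin receptor Tfrc, at 48.9 CPM in the deleted cells (1.69). Counts of Hbb-bs can be shared with its near-identical copy Hbb-bt, which stood at 39.5 and 1.57 CPM in control and deleted high Car1 cells.

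Among megakaryocyte targets, 7 of 12 were lower and 0 higher in the SI Pf4 gate, with von Willebrand factor (Vwf) at 129 and 26.4 CPM (0.205) and Treml1 at 103 and 39.0 (0.378). In the SI Fcer1a gate 5 of 9 were higher and 2 lower, the integrin Itgb3 at 7.02 and 80.7 CPM (11.5) and Gp9 at 24.6 and 4.22 (0.172). All 7 tested in the deleted Hlf gate were lower, such as Gp9 at 22.1 and 4.59 CPM (0.208). Of mast or basophil targets, 3 of 7 were higher and 0 lower in the SI Hlf gate, with mast cell carboxypeptidase Cpa3 at 144 and 623 CPM (4.34) and the IgE receptor chain Ms4a2 at 11.6 and 48.8 (4.19). In the SI Pf4 gate 3 of 5 were higher, Ms4a2 by 18.4-fold. Within the SI Fcer1a gate 1 of 9 was higher, Cpa3 at 835 and 1573 CPM (1.88), and 3 were lower, among them the basophil proteases Prss34 at 616 and 1.82 (0.00295) and Mcpt8 at 204 and 28.0 (0.137). The shares of all genes called in each gate stand above.

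Over 16 points (6 gates in the control and SI libraries and 4 in the deleted), each member's log2 level was correlated with those of 6629 genes, with the 8 members and the gate genes left out, and the 3 most alike of these are named. These points share libraries and cells, so the values are descriptions. For Klf1 they were Ces2g (Pearson's r = 0.991), Abcb4 (0.972) and Atp1b2 (0.964), for Gata1 Acss2 (0.974), Sept8 (0.965) and Plxnc1 (0.962), and for Gfi1b Vamp5 (0.964), Plxnc1 (0.962) and Sept8 (0.960). For Gata2 they were Rab37 (0.952), Slc18a2 (0.947) and Rgs1 (0.943). Tal1 went with Cbfa2t3 (0.971), Stat5a (0.963) and Zfp385a (0.958), and Zfpm1 with Elmsan1 (0.955), Plxnc1 (0.948) and Mfsd2b (0.941). Nfe2 went with Vps37b (0.971), Muc13 (0.968) and Acap1 (0.965), and Fli1 with Cited2 (0.980), Tmem189 (0.979) and Papss1 (0.978). Between members r was 0.966 for Gata1 and Gfi1b, 0.961 for Gfi1b and Zfpm1, 0.940 for Tal1 and Zfpm1, 0.916 for Gata1 and Klf1, 0.822 for Gata2 and Nfe2, 0.669 for Gata1 and Gata2 and -0.634 for Klf1 and Fli1. Over the 12 points without the deleted library, values moved both ways. There r was 0.866 for Nfe2 and Acap1 and 0.891 for Gata2 and Rgs1. It was 0.979 for Gata2 and Rab37 and 0.938 for Gata2 and Nfe2.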

How the data were processed

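The deposited matrices held raw UMI counts per gene and barcode, not normalized. Per the file headers and the submitters' processing notes the software was Cell Ranger 7.1.0, and per those notes the build was mm10. Barcodes with at least 1000 UMIs, 500 genes and at most 10% mitochondrial UMIs were kept, and those with a Scrublet score of 0.25 or more (scanpy 1.11.5, expected share 8%) were removed. Scrublet's own threshold marked 1166 control, 0 deleted and 1 SI barcodes, so it had not worked in the deleted and SI libraries. UMIs were summed per gate in Python 3.11.15 (numpy 2.4.6, scipy 1.17.1, pandas 2.3.3) and given as CPM, with exact Poisson intervals and conditional binomial intervals for ratios. Median depth was 11964, 6761 and 12148 UMIs per deposited barcode in the control, deleted and SI libraries. Within gates the order differed. In the Hlf and Elane gates the median was 10314 and 14418 UMIs in control cells and 15920.5 and 19854 in deleted cells. In the low and high Car1 gates it was 9609 and 17162 in control cells and 6513 and 16802 in deleted cells. For SI cells it was 11572 in the Hlf, 16277 in the Elane, 10056 in the low Car1 and 18354 in the high Car1 gate. Gates set on raw UMIs depend on depth. In gates with 17 or 18 UMIs of a gene the counting interval spans over 2-fold. Log2 ratios carried 1 CPM, which understates differences of low genes. All 8 members are described. Likeness was sought among genes with a mean of at least 20 CPM, without the members, gate genes, receptor segments, mitochondrial, ribosomal protein, predicted, Rik and sex-linked marker genes, and from each list the 2 largest differences each way may be named. The call step was tested on data simulated with counting error only, at the depth of the control Hlf gate and with changes larger than the fold. This does not cover variation between cells or libraries, nor gates with few UMIs. Alternatives covered the cell filter, doublets, gate thresholds, gate overlap, thinning, weighting, the total, B-lineage cells, the pseudocount, centring and the fold. Splits by Car1, by Mcpt8 and Prss34 and by Cd79a were added after seeing the data. Members and lists were chosen with earlier results of these data known. Some members of the lists are not reported by name here.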

Additional observations from a re-analysis of the deposited data

Results flagged for a closer look

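Zfpm1 and Fli1 were above the level of the control Kit+ library in control B220lo cells with 3 or more Cd79a UMIs, which no comparison above used. Zfpm1 stood at 82.9 CPM (80.5 to 85.4) in these 10839 cells, against 54.1 (52.9 to 55.3) over all control Kit+ cells, and Fli1 at 243 CPM (239 to 247) against 131 (129.6 to 133). In the deleted Kit+ library the 12591 cells with 3 or more Cd79a UMIs had Zfpm1 at 3.22 CPM (2.87 to 3.59) and Fli1 at 85.9 (84.0 to 87.7). Cells of both libraries that also had Igll1, the surrogate light chain of early B-lineage cells, showed the same order, with Zfpm1 at 76.9 CPM in 3101 B220lo cells and 3.11 in 12483 deleted cells, and Fli1 at 218 and 85.6. Gata1, Klf1, Gata2 and Tal1 were each under 1.5 CPM in the Cd79a cells of both libraries. Gfi1b also differed, at 4.32 CPM (3.79 to 4.92) in the B220lo and 0.541 (0.405 to 0.708) in the deleted Cd79a cells. In those with Igll1 it was 6.26 and 0.431. Nfe2 was alike in the Cd79a cells, at 4.88 and 5.13. The 47 control Kit+ cells with 3 or more Cd79a UMIs, of the same sort as the deleted library, had Zfpm1 at 60.3 CPM (36.3 to 94.1, on 19 UMIs) and Fli1 at 199.8 (154 to 256), also above the deleted levels. They also held Gfi1b at 60.3 and Nfe2 at 47.6 CPM, against 0.541 and 5.13 in the deleted cells. These 47 cells were mixed, with 8801 CPM of granulocyte, 459.9 of erythroid and 6559 of B-lineage markers. The deleted Cd79a cells had 763, 119 and 13475 CPM. The part of this mixture in the levels was not tested. The sex and the genotype differ between the deleted and the control libraries. The B220lo cells also differ from the deleted cells in the sort, and Igll1 was found in 3101 of 10839 and in 12483 of 12591 cells. The parts of sex, genotype and sort cannot be told apart.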

How the results depend on the processing

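Of 1040 log2 ratios recomputed under the alternatives, 837 moved by less than their counting interval, 184 by more, and 19 called ratios changed sign. The number of pairs called lower in the SI library, 11, became 5 with cells positive for 1 gate gene only, 7 with a pseudocount of 10 CPM and 5 at 2-fold. The number called higher, 0, became 1 with cells positive for 1 gate gene only (Gata2 in the Elane gate, 0.65) and 2 when cells were thinned before gating (Zfpm1 in the Fcer1a gate, 2.29, and Gata2 in the Elane gate, 0.68). In the deleted library the 16 lower calls became 10 with gate thresholds doubled, 7 without cells of 10 or more B-lineage UMIs and 8 without Cd79a cells, and the 0 higher calls became 1 with cells positive for 1 gate gene only (Gata1 in the Hlf gate, 0.99). Changes of sign among called ratios were all in the deleted library, while the uncalled SI Gata2 ratios turned with 1 gate gene only, to -0.06 in the Hlf and -0.09 in the low Car1 gate. Klf1 in the Hlf gate became 0.52 with 1 gate gene only and 0.01 when thinned, and Tal1 in the Elane gate 0.02 when thinned. In the low Car1 gate, without cells of 10 or more B-lineage UMIs, Gata1 was 0.57, Gata2 0.05, Klf1 0.55, Tal1 0.25, Zfpm1 0.11 and Nfe2 0.16, while Gfi1b stayed lower (-0.55) but short of the fold. Without Cd79a cells the first 6 were 0.54, 0.02, 0.52, 0.22, 0.08 and 0.13. With thresholds doubled, Gata2 was 0.05, Tal1 0.03, Zfpm1 0.23 and Nfe2 0.32. Fewer cells enter under these settings, and the cause was not tested further. The lower Fli1 of the deleted high Car1 gate kept its sign in all 13 alternatives (-5.04 to -1.01). These reuse largely the same cells and 17 UMIs, and some, such as the pseudocount, cannot turn a sign. They are thus not separate support. The value of -5.04 came from cells thinned before gating and is not read as an effect size. No paired analysis was possible because each group had 1 library. The lower calls of the deleted library numbered 19 with doublets kept and with all deposited barcodes. Cell numbers limit the deleted library, with 62 cells in the high Car1 gate, and the control Fcer1a gate, with 127.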
